A study of Mus musculus with 59 samples.

Results

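The genes described here are 47 mouse genes whose products copy DNA in S phase or supply the nucleotides for it, followed in lung, liver and forestomach of mice given a polycyclic aromatic hydrocarbon by mouth. They were found by their names. Every probe whose transcript accession belongs to 1 of the 47 gene symbols was taken, which gave 53 probes of the 55681 on the array and 47 of 37163 genes or transcripts. The 6 genes with 2 probes (Cdc6, Chaf1b, Pole, Rfc4, Timeless and Uhrf1) are represented by the brighter probe. No measured value entered the choice, although results of these data were known when it was made.

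Tissue RNA, labelled with Cy5, was hybridised on a 2-colour Agilent mouse array against 1 common reference, a commercial pool of RNA from 11 mouse cell lines labelled with Cy3, with no dye swap. The animals were male Muta™Mouse, a transgenic reporter strain that all groups share, about 16 weeks old. They received olive oil alone (vehicle) or benzo(b)fluoranthene (BbF) in olive oil at 25 (low), 50 (medium) or 100 (high) mg/kg-bw/day by gavage on 28 consecutive days, and tissue was taken 72 h after the last dose. Sample titles and the dosing protocol give BbF as the agent, whereas benz(a)anthracene stands in the exposure label and in the series' design. The doses match those that the authors' paper lists for BbF and differ from its benz(a)anthracene doses. The agent is therefore called BbF here. Each of the 12 groups of tissue and dose held 5 mice, except the low-dose lung with 4. Mice 1 to 5 received vehicle, 6 to 10 the low, 11 to 15 the medium and 16 to 20 the high dose, and a number is the same animal in all tissues. RNA came from random sections of whole tissue. In such bulk samples fewer cells of a type and less RNA per cell cannot be told apart.

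A level below is a log2(Cy5/Cy3), the log2 ratio of tissue to reference after loess normalization within the array, and a change is a difference of such levels, given with its standard error (SE). Because the reference level differs from gene to gene, levels are compared between mice or tissues and never between genes. A gene was called where limma's moderated test gave a Benjamini-Hochberg adjusted p of at most 0.05 over all 55681 probes and the change was at least 1.5-fold, which is 0.58 on the log2 scale. The 3 doses in a tissue share the same vehicle arrays, so their changes are not independent of each other.

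Some arrays stood apart. The third liver slide, with 8 arrays (1 vehicle, 2 low, 2 medium and 3 high), had only 10.7% to 12.9% of probes well above background in Cy5, against 37.1% to 46.2% on the other 12 liver arrays. Only 5 to 11 of the 47 genes were above background on those 8 arrays, against 38 to 42 on the others, and liver results are therefore given with and without that slide. In lung, the array of medium-dose mouse 13 had 68.8% of probes above background, against 44.8% to 52.7% on the other 18. The lung of low-dose mouse 6 carried forestomach keratins, with Krt4 at 5.73 and Krt13 at 4.17, while the other 18 lungs lay between -0.16 and 0.36 for Krt4 and between -2.21 and -0.90 for Krt13. The surfactant gene Sftpc was at 6.86 and the club cell gene Scgb1a1 at 7.96 in that lung, both within the range of lungs. Otherwise the defining markers went with the labelled tissue, although Scgb1a1 was also at 4.30 to 5.46 in forestomach and the hepatocyte gene Alb reached 4.79 there.

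Before a cell divides, the origin recognition complex with Cdc6 and Cdt1 loads the Mcm2 to Mcm7 ring onto origins, and Cdc45 and the GINS proteins turn the ring into the working helicase. Primase and polymerase alpha start each strand, the sliding clamp Pcna, loaded by replication factor C, holds the polymerases on DNA, and Fen1 and Lig1 join the lagging-strand fragments. Ribonucleotide reductase (Rrm1 with Rrm2), thymidine kinase and thymidylate synthase feed the deoxynucleotide pool, and E2F transcription factors drive most of these genes as cells leave the resting state. Few cells in adult lung or liver are in S phase, whereas the squamous lining of the forestomach renews itself continuously.

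The promoters of the genes were searched for the letters that E2F factors are known to bind, since these genes are textbook E2F targets. RefSeq windows from 250 bases before to 50 bases after the transcription start (GRCm38.p6, whereas the array files name mm9, so no position is carried over) were listed for 38 of the 47 genes, in 47 windows. The letters TTTCCCGC, TTTCGCGC, TTTGCCGC or TTTGGCGC, on either strand, stood in 16 of the 47 windows (34%) and in 744 of all 32851 listed windows (2.26%). The pentamer CCAAT, read on either strand as CCAAT or ATTGG, stood in 27 windows (57.4%) and in 37.4% of all windows. The windows of 4 genes on which the lung results turn are printed below 5′ to 3′ on the gene's own strand, with matches in capitals. Uhrf1 and Mcm7 each have 2 listed windows, and the other of each, not printed, holds no E2F-type match. The printed Uhrf1 window (chr17:56304063-56304362, plus strand) holds 1 E2F-type match and 2 CCAAT matches, and the Mcm7 window (chr5:138171834-138172133, minus strand) holds 2 and 3, of which 1 of each kind overlap.
Uhrf1: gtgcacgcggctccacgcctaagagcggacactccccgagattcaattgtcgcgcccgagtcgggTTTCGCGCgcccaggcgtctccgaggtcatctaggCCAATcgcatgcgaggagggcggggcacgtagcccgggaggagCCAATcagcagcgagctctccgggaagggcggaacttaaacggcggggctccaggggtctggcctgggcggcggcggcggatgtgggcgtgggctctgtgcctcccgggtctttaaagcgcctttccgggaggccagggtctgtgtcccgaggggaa
Mcm7: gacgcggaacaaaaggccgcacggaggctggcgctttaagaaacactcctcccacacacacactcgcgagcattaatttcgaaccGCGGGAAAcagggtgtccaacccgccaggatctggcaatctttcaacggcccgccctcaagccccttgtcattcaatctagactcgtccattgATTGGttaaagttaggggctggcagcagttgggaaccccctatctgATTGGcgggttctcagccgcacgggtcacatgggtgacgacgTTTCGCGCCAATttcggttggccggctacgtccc
Rrm2: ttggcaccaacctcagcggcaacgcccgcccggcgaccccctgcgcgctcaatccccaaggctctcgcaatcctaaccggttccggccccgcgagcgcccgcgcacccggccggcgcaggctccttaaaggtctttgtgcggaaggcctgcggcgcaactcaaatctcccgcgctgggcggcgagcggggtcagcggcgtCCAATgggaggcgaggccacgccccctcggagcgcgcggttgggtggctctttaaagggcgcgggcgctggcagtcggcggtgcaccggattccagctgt
Timeless: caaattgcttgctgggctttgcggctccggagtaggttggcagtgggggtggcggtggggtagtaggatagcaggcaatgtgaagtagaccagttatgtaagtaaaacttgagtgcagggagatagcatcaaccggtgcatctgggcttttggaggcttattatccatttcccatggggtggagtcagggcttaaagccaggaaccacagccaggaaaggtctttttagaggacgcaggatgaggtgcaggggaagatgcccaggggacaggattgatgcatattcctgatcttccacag
The Rrm2 window (chr12:24708004-24708303, plus strand) holds 1 CCAAT match and none of the E2F-type letters, and the Timeless window (chr10:128237816-128238115, plus strand) holds neither. A match describes letters and not a bound site, and a window without a match says nothing of the factor.

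In lung 9, 8 and 2 of the 47 replication genes were called higher at the low, medium and high dose. The order of these counts depends on the scaling. With each array centred on its median in place of loess, 12, 15 and 25 were called (0.517%, 0.918% and 8.13% of all genes). The 9 genes called at the low dose (0.433% of all genes were called) were Rrm2, Uhrf1, Mcm7, E2f8, Prim1, Timeless, Mcm5, Tk1 and Pcna. At the medium dose 8 were called, all higher (0.584% of all genes): Rrm2, Uhrf1, Mcm2, Timeless, Pcna, Mcm7, E2f8 and Chaf1b. At the high dose 2 were called, Uhrf1 and Timeless, both higher (1.77% of all genes). The median change of the 47 genes was 0.41, 0.42 and 0.17 at the low, medium and high dose, whereas the median over all genes was 0.00109, -0.00118 and -0.00214.

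Many members moved by less than the call requires. At an unadjusted p under 0.05, 35 genes were higher at the low and 36 at the medium dose, while at the high dose 19 were higher and 1, Pold2, was lower. The share of all genes past that unadjusted threshold was 10%, 16.1% and 21% at the low, medium and high dose. Changes ran from -0.08 to 1.75 at the low, from -0.10 to 1.42 at the medium and from -0.18 to 0.92 at the high dose. For 29 of the 47 genes all 4 low-dose lungs lay above all 5 vehicle lungs, an arrangement that 2.63% of all genes showed. The same held for 20 genes at the medium dose (2.11% of all genes) and for 6 at the high dose (4.26% of all genes), which were Gins1, Pcna, Rfc1, Rfc5, Uhrf1 and Timeless.

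**Figure D1:**
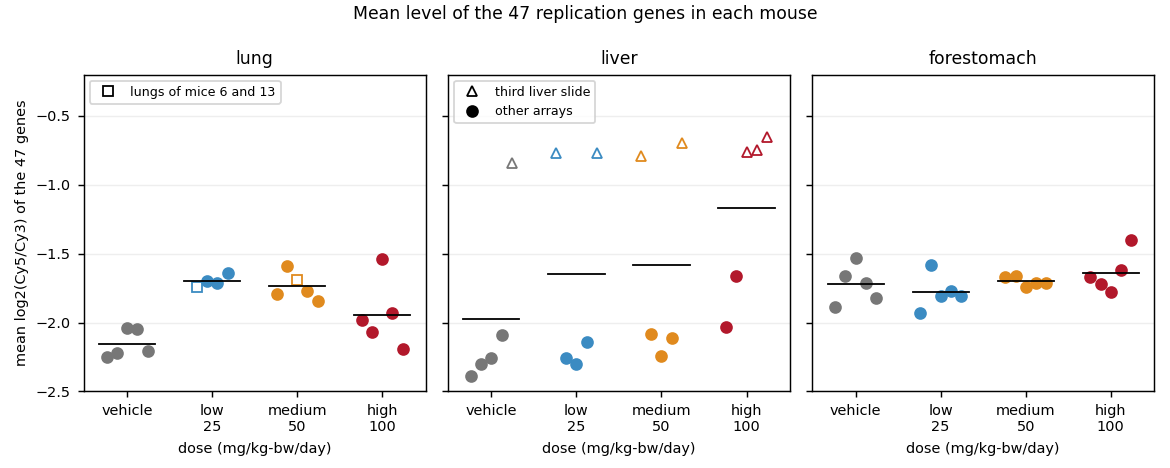
Mean level of the 47 genes in each mouse, as the mean log2(Cy5/Cy3), by tissue and dose; each point is 1 array, the black line is the group mean, triangles are the third liver slide and squares the lungs of mice 6 and 13. Low-dose lungs lie at -1.74 to -1.64 and vehicle lungs at -2.25 to -2.04, and the liver points of the third slide lie above all other liver points.

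The mean level of the 47 genes in each lung shows the same order. It lay between -2.25 and -2.04 in vehicle mice, between -1.74 and -1.64 at the low dose and between -1.84 and -1.59 at the medium dose, so that neither of these dose groups overlapped the vehicle group. At the high dose it ran from -2.19 in mouse 20 to -1.54 in mouse 18, the widest of the 4 lung groups (SD 0.24, n = 5, against 0.10 in vehicle mice). Within slides, the median difference of the 47 genes from vehicle was 0.48, 0.32 and 0.48 at the low, 0.60, 0.35 and 0.36 at the medium, and 0.20, 0.44 and 0.07 at the high dose on the 3 lung slides in turn. The direction was thus the same on all 3 slides at each dose, from 1 to 3 arrays a group on a slide.

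Without mouse 6, whose lung held the keratins, 7 genes were called at the low dose (0.393% of all genes) with a median change of 0.42. Mcm5 and Prim1 were then no longer called, with adjusted p-values of 0.0807 and 0.0884. Without mouse 13, 10 genes were called at the medium dose (0.821% of all genes) with a median change of 0.41. Leaving out each of the 9 vehicle and low-dose mice in turn ended the low-dose call of Mcm5 in 8 cases, of Prim1 in 6, of Pcna in 3 and of Tk1 in 1. The medium-dose call of Chaf1b was lost in 5 of 10 cases, that of E2f8 in 3 and that of Mcm7 in 2, while the calls of Rrm2, Uhrf1 and Timeless held in each case.

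**Figure D2:**
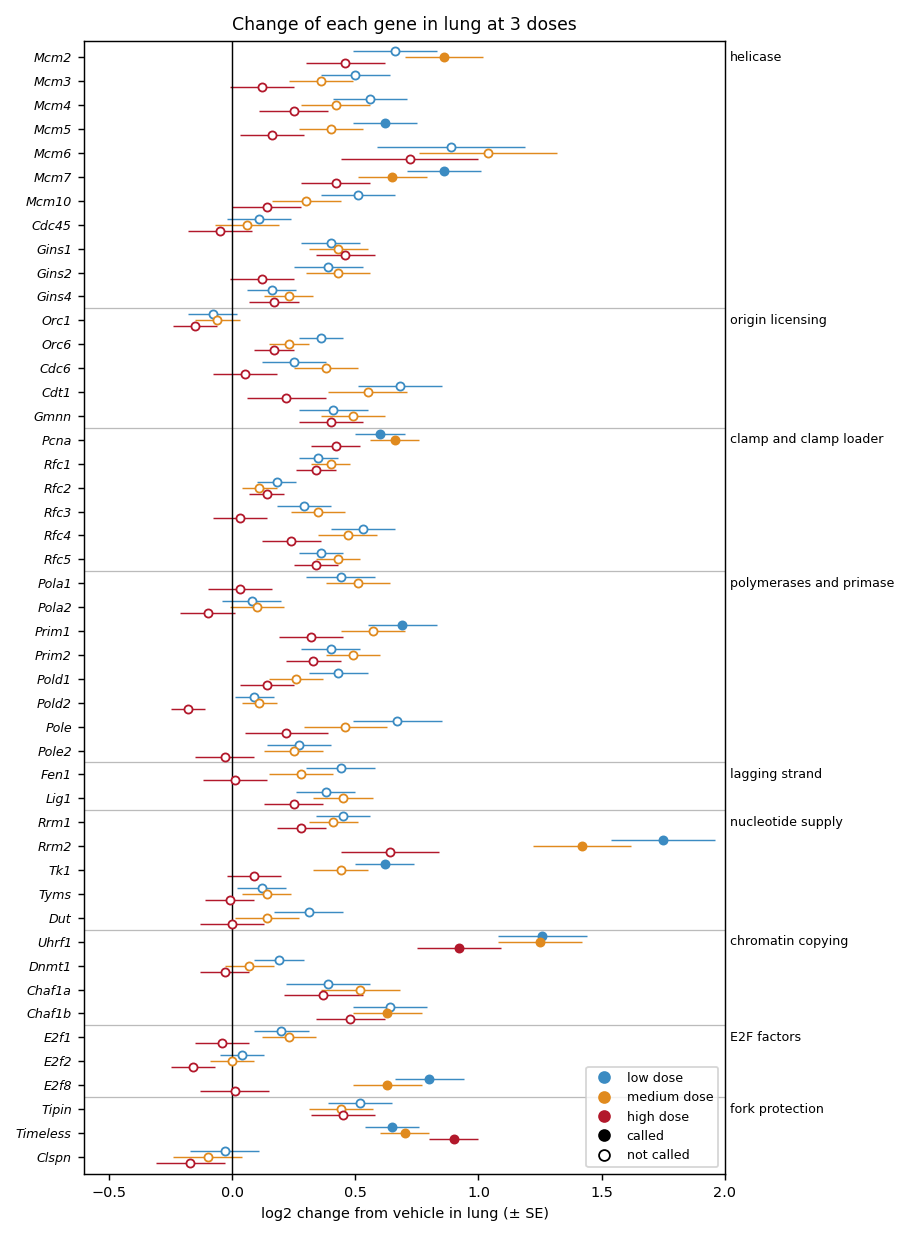
Log2 change from vehicle in lung for each of the 47 genes, ordered by role, at the low, medium and high dose; bars are SE, filled points were called and open points were not. Rrm2 and Uhrf1 lie farthest to the right at the low and medium dose, and only Uhrf1 and Timeless are filled at the high dose.

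Some helicase genes rose in lung at the lower doses. Of 11 measured, Mcm5 and Mcm7 were called at the low dose, Mcm2 and Mcm7 at the medium dose and none at the high dose. With median centring 7 were called at the high dose, as were 8.13% of all genes. With loess 9, 10 and 4 passed an unadjusted p of 0.05 at the low, medium and high dose, all higher. The median change was 0.51, 0.42 and 0.17 at the low, medium and high dose.

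Mcm7 (NM_008568), a subunit of the ring, stood at -2.63, -2.68, -2.86, -2.67 and -2.85 in the 5 vehicle lungs, at -1.92, -1.89, -1.93 and -1.75 at the low, at -2.23, -1.84, -2.01, -2.10 and -2.26 at the medium, and at -2.24, -2.51, -1.68, -2.31 and -2.84 at the high dose. All low- and medium-dose lungs were above all vehicle lungs, and 1 high-dose lung fell among the vehicle lungs. Its change was 0.86 ± 0.15 (adjusted p = 0.00513), 0.65 ± 0.14 (adjusted p = 0.0194) and 0.42 ± 0.14 (adjusted p = 0.0839) at the low, medium and high dose.

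Mcm2 stood at -2.81, -2.66, -2.59, -2.41 and -2.84 in vehicle lungs, at -2.10, -2.03, -1.99 and -1.90 at the low, at -1.98, -1.65, -1.47, -1.86 and -2.04 at the medium, and at -1.94, -2.46, -1.52, -2.51 and -2.59 at the high dose. Low- and medium-dose lungs lay wholly above vehicle, while 3 of the 5 high-dose lungs lay within the vehicle range. The change was 0.66 ± 0.17 at the low dose, not called (adjusted p = 0.09), 0.86 ± 0.16 at the medium dose (adjusted p = 0.00724) and 0.46 ± 0.16 at the high dose (adjusted p = 0.101).

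Mcm5 was at -2.37, -2.54, -2.00, -2.20 and -2.31 in vehicle lungs, at -1.70, -1.66, -1.65 and -1.67 at the low, at -2.08, -1.66, -1.93, -1.81 and -1.94 at the medium, and at -2.17, -2.26, -1.57, -2.13 and -2.47 at the high dose. The 4 low-dose lungs were tightly grouped above the vehicle lungs, and the other dose groups overlapped them. The low-dose change was 0.62 ± 0.13 (adjusted p = 0.0328).

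Mcm6 was at -3.73, -3.82, -3.63, -2.44 and -2.62 in vehicle lungs, at -2.12, -2.51, -2.62 and -2.16 at the low, at -2.38, -1.87, -2.21, -2.40 and -2.17 at the medium, and at -2.08, -3.23, -1.64, -2.56 and -3.13 at the high dose. The vehicle lungs themselves fell into 3 low and 2 higher values, and only the medium-dose lungs lay wholly above them. The changes of 0.89 ± 0.30, 1.04 ± 0.28 and 0.72 ± 0.28 were not called (adjusted p = 0.272, 0.0639 and 0.158).

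The other ring subunits were not called at any dose. Mcm3 was at -2.10, -2.49, -2.12, -2.20 and -2.13 in vehicle lungs, at -1.81, -1.69, -1.65 and -1.69 at the low, at -2.00, -1.52, -1.71, -1.97 and -2.06 at the medium, and at -1.94, -2.24, -1.59, -2.28 and -2.39 at the high dose. Mcm4 was at -1.84, -1.88, -1.83, -1.67 and -1.93 in vehicle lungs, at -1.35, -1.24, -1.22 and -1.27 at the low, at -1.55, -1.13, -1.18, -1.57 and -1.63 at the medium, and at -1.40, -1.75, -1.01, -1.66 and -2.08 at the high dose. Low- and medium-dose lungs did not overlap vehicle for either gene, and high-dose lungs did. The changes of Mcm3 were 0.50 ± 0.14, 0.36 ± 0.13 and 0.12 ± 0.13 and those of Mcm4 0.56 ± 0.15, 0.42 ± 0.14 and 0.25 ± 0.14, in order of dose. Gins1, a part of the GINS complex, was at 0.40 ± 0.12, 0.43 ± 0.12 and 0.46 ± 0.12, and passed the adjusted p but not the fold at the high dose (adjusted p = 0.0182).

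Of the 5 origin licensing genes limma called none in lung at any dose, and 3, 4 and 2 passed an unadjusted p of 0.05 at the low, medium and high dose. Cdt1, which helps load the ring, changed by 0.68 ± 0.17, 0.55 ± 0.16 and 0.22 ± 0.16 (adjusted p = 0.069, 0.0794 and 0.527). Its inhibitor geminin (Gmnn) changed by 0.41 ± 0.14, 0.49 ± 0.13 and 0.40 ± 0.13. With median centring Cdt1 was called at every dose, and Orc6 and Gmnn at the high dose. With the slide as a block Cdt1 was called at the low and medium dose.

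Cdc6, the loading factor of the ring, stood at -2.15, -1.93, -1.53, -1.49 and -1.72 in vehicle lungs, at -1.71, -1.30, -1.63 and -1.42 at the low, at -1.49, -1.30, -1.52, -1.10 and -1.50 at the medium, and at -1.83, -1.85, -1.40, -1.68 and -1.80 at the high dose. The groups overlapped at each dose, and the probe was not well above background on any vehicle lung. Its changes of 0.25, 0.38 and 0.05 were not called (limma adjusted p = 0.62, 0.133 and 0.889). The mean Cy5 signal, set against an upper bound for the vehicle signal, gave ratios of 1.14, 1.15 and 1.06 in order of dose. These ratios were not tested. They include dosed arrays near background, since the probe was well above it on 3 of 4, 4 of 5 and 3 of 5 lungs. Cdc45, Orc1 and the checkpoint mediator Clspn were likewise not well above background on any vehicle lung. For Cdc45 such a ratio was 1.02 at the low and 1.03 at the medium dose, also untested, and for Orc1 and Clspn no fold can be given.

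Pcna (NM_011045), the sliding clamp, was higher at all doses in lung. It stood at -2.01, -1.74, -1.80, -1.70 and -1.80 in vehicle lungs, at -1.27, -1.34, -1.07 and -1.17 at the low, at -1.11, -1.02, -1.32, -1.10 and -1.18 at the medium, and at -1.59, -1.57, -1.11, -1.15 and -1.53 at the high dose. No dosed lung overlapped the vehicle lungs. The change was 0.60 ± 0.10 (adjusted p = 0.00521) at the low and 0.66 ± 0.10 (adjusted p = 0.00114) at the medium dose. The high-dose change of 0.42 ± 0.10 passed the adjusted p (0.0118) but not the fold. With the slide as a block the low-dose change was 0.58 ± 0.10, just short of the fold, and the call was lost. The gene is known as a target of p53 as well as of E2F factors.

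The 5 subunits of the clamp loader were all above 0 at every dose and none was called. Rfc1, its large subunit, changed by 0.35 ± 0.08, 0.40 ± 0.08 and 0.34 ± 0.08, and Rfc5 by 0.36 ± 0.09, 0.43 ± 0.09 and 0.34 ± 0.09. These changes differed little between doses, and both genes passed the adjusted p at the medium and the high dose. Rfc3 and Rfc4 were at 0.29 ± 0.11 and 0.53 ± 0.13 at the low dose and at 0.03 ± 0.11 and 0.24 ± 0.12 at the high dose. With median centring Rfc1 was called at every dose, Rfc5 at the medium and high dose, and Rfc2 and Rfc4 at the high dose.

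Among 8 polymerase and primase genes only Prim1, the catalytic subunit of primase, was called. It stood at -3.28, -3.30, -3.16, -3.24 and -3.27 in vehicle lungs, at -2.45, -2.68, -2.61 and -2.52 at the low, at -2.83, -2.46, -2.65, -2.54 and -2.94 at the medium, and at -3.00, -3.11, -2.30, -2.89 and -3.34 at the high dose. The low- and medium-dose lungs lay above all vehicle lungs, and 1 high-dose lung lay below them. The change was 0.69 ± 0.14 (adjusted p = 0.0229) at the low dose, 0.57 ± 0.13 (adjusted p = 0.033, short of the fold) at the medium and 0.32 ± 0.13 (adjusted p = 0.188) at the high dose.

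Pola1, the catalytic subunit of polymerase alpha, stood at -2.37, -2.31, -2.24, -1.92 and -1.94 in vehicle lungs, at -1.78, -1.84, -1.80 and -1.42 at the low, at -1.35, -1.59, -1.99, -1.69 and -1.62 at the medium, and at -2.31, -2.44, -2.14, -1.79 and -1.95 at the high dose. The low-dose lungs lay above vehicle, and the medium- and high-dose lungs overlapped it. The change was 0.44 ± 0.14, 0.51 ± 0.13 and 0.03 ± 0.13 (adjusted p = 0.219, 0.051 and 0.95). Pold2, a small subunit of polymerase delta, was at 0.09 ± 0.08 and 0.11 ± 0.07 at the lower doses and at -0.18 ± 0.07 at the high dose (adjusted p = 0.182). With median centring Pola1 was called at the low and medium dose, and Prim1 and Pold1 at the high dose, while the low-dose call of Prim1 was lost. With the slide as a block Prim1 was called at the low and medium dose and Pole at the low dose.

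Both lagging-strand genes passed the unadjusted threshold at the low and medium dose, without a call. Lig1, the ligase that seals the fragments, stood at -2.40, -2.59, -2.45, -2.38 and -2.45 in vehicle lungs, at -2.18, -2.10, -2.08 and -1.92 at the low, at -2.02, -1.85, -2.02, -2.08 and -2.03 at the medium, and at -2.22, -2.36, -1.67, -2.15 and -2.63 at the high dose. Its low- and medium-dose lungs lay above vehicle, with changes of 0.38 ± 0.12 and 0.45 ± 0.12, and the high-dose lungs overlapped it with 0.25 ± 0.12. The flap nuclease Fen1 changed by 0.44 ± 0.14, 0.28 ± 0.13 and 0.01 ± 0.13. With median centring Lig1 was called at the medium and high dose.

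Rrm2 (NM_009104), the small subunit of ribonucleotide reductase made in S phase, had the largest change of the 47 genes at both lower doses. It stood at -4.50, -4.43, -4.16, -3.92 and -4.39 in vehicle lungs, at -2.62, -2.56, -2.48 and -2.44 at the low, at -2.83, -2.52, -2.67, -2.97 and -3.29 at the medium, and at -3.85, -3.89, -2.66, -3.69 and -4.11 at the high dose. Low- and medium-dose lungs lay far above vehicle without overlap, and among the high-dose lungs mouse 18 stood with the lower doses while mouse 20 lay within the vehicle range. The change was 1.75 ± 0.21 (adjusted p = 0.000112), 1.42 ± 0.20 (adjusted p = 0.000626) and 0.64 ± 0.20 (adjusted p = 0.0602) at the low, medium and high dose. Rrm1, the large subunit, changed by 0.45 ± 0.11, 0.41 ± 0.10 and 0.28 ± 0.10 and was not called. With median centring Rrm1 and Rrm2 were both called at the high dose.

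Tk1, the cytosolic thymidine kinase, stood at -2.24, -2.35, -2.01, -2.02 and -2.19 in vehicle lungs, at -1.49, -1.65, -1.46 and -1.55 at the low, at -1.70, -1.49, -1.73, -1.77 and -1.90 at the medium, and at -2.10, -2.26, -1.64, -1.98 and -2.41 at the high dose. The 2 lower doses lay above vehicle and the high dose overlapped it. The change was 0.62 ± 0.12 (adjusted p = 0.0112), 0.44 ± 0.11 (adjusted p = 0.046, short of the fold) and 0.09 ± 0.11 (adjusted p = 0.768). Thymidylate synthase (Tyms) was at 0.12 ± 0.10, 0.14 ± 0.10 and -0.01 ± 0.10 and the dUTPase gene Dut at 0.31 ± 0.14, 0.14 ± 0.13 and 0.00 ± 0.13.

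**Figure D3:**
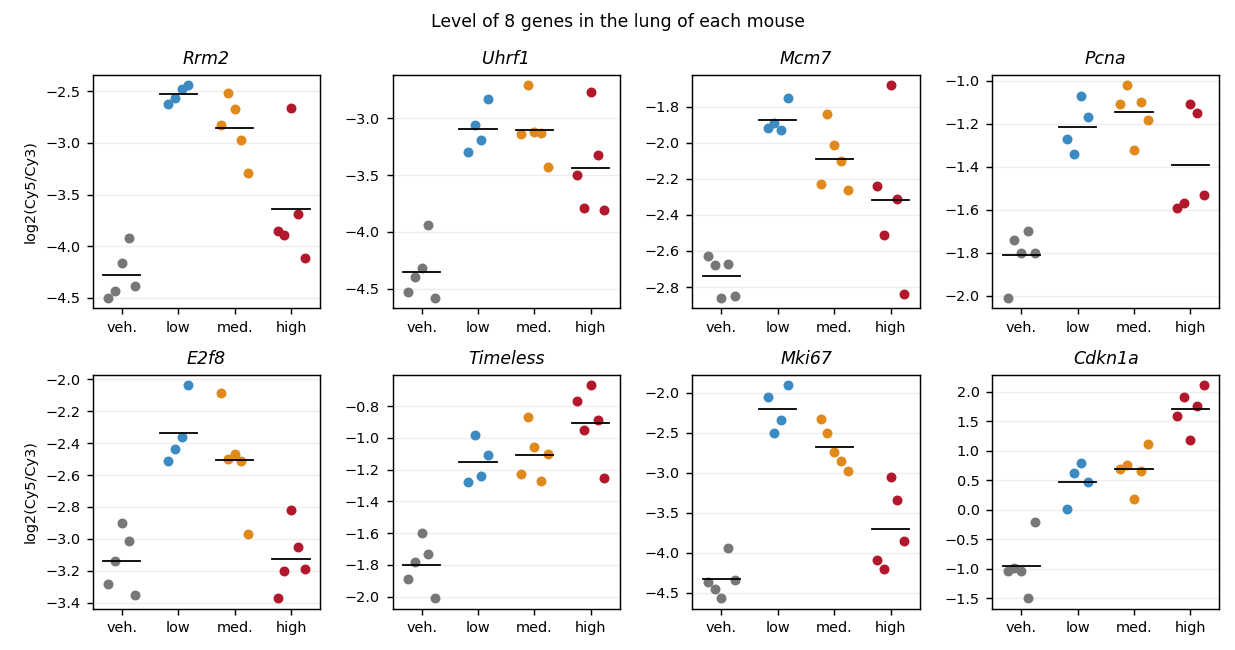
Level (log2 Cy5/Cy3) of 6 of the replication genes and of Mki67 and Cdkn1a in the lung of each mouse, by dose; each point is 1 mouse and the black line the group mean. Rrm2, E2f8 and Mki67 are lower at the high than at the low dose, Timeless and Cdkn1a have their highest group mean at the high dose, and high-dose mouse 18 gives the topmost high-dose point in every panel but that of Cdkn1a, where it gives the lowest.

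Uhrf1 (NM_010931), which brings the maintenance methyltransferase Dnmt1 to newly copied DNA, was called at all 3 doses. It stood at -4.53, -4.40, -4.32, -3.94 and -4.58 in vehicle lungs, at -3.30, -3.06, -3.19 and -2.83 at the low, at -3.14, -2.71, -3.12, -3.13 and -3.43 at the medium, and at -3.50, -3.79, -2.77, -3.32 and -3.81 at the high dose. No dosed lung overlapped vehicle. The change was 1.26 ± 0.18 (adjusted p = 0.000798), 1.25 ± 0.17 (adjusted p = 0.00053) and 0.92 ± 0.17 (adjusted p = 0.00215). The other Uhrf1 probe, to another transcript record, was well above background on 1 of 19 lungs and gave -0.01, -0.13 and -0.14.

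Chaf1b, a subunit of the histone chaperone that follows the fork, stood at -3.09, -3.07, -2.63, -2.83 and -2.81 in vehicle lungs, at -2.34, -2.22, -2.28 and -2.14 at the low, at -2.53, -2.06, -2.24, -2.17 and -2.27 at the medium, and at -2.49, -2.55, -1.80, -2.30 and -2.90 at the high dose. Only the high-dose lungs overlapped vehicle, through mouse 20. The change was 0.64 ± 0.15 (adjusted p = 0.056), 0.63 ± 0.14 (adjusted p = 0.0253, called) and 0.48 ± 0.14 (adjusted p = 0.0504), and the other probe of the gene gave 0.66, 0.66 and 0.49. Dnmt1 itself was at 0.19 ± 0.10, 0.07 ± 0.10 and -0.03 ± 0.10.

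Of the 3 E2F factors only E2f8, an atypical repressor of the family that is itself an E2F target, was called. It stood at -3.28, -3.14, -2.90, -3.01 and -3.35 in vehicle lungs, at -2.51, -2.44, -2.36 and -2.04 at the low, at -2.09, -2.50, -2.47, -2.51 and -2.97 at the medium, and at -3.37, -3.20, -2.82, -3.05 and -3.19 at the high dose. The low-dose lungs lay above vehicle, 4 of the 5 medium-dose lungs did, and the high-dose lungs overlapped it. The probe was well above background on 3 of the 5 vehicle lungs. The change was 0.80 ± 0.14 (adjusted p = 0.00654) and 0.63 ± 0.14 (adjusted p = 0.0187) at the lower doses and 0.01 ± 0.14 (adjusted p = 0.981) at the high dose.

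E2f1, an activator of the family, stood at -1.29, -1.36, -1.14, -1.52 and -1.29 in vehicle lungs, at -1.40, -0.96, -1.06 and -1.04 at the low, at -1.15, -1.06, -1.13, -1.16 and -0.97 at the medium, and at -1.39, -1.28, -0.98, -1.44 and -1.69 at the high dose. The groups overlapped at each dose, with changes of 0.20 ± 0.11, 0.23 ± 0.11 and -0.04 ± 0.11. E2f2 was at 0.04 ± 0.09, 0.00 ± 0.09 and -0.16 ± 0.09.

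Timeless (NM_001164081), which with Tipin protects stalled forks, had its highest group mean at the high dose, as did Gins1 alone among the other 46 genes. It stood at -1.89, -1.78, -1.60, -1.73 and -2.01 in vehicle lungs, at -1.28, -0.98, -1.24 and -1.11 at the low, at -1.23, -0.87, -1.06, -1.27 and -1.10 at the medium, and at -0.77, -0.95, -0.67, -0.89 and -1.25 at the high dose. No dosed lung overlapped vehicle. The change was 0.65 ± 0.11 (adjusted p = 0.0041), 0.70 ± 0.10 (adjusted p = 0.00118) and 0.90 ± 0.10 (adjusted p = 1.97e-05), and the other probe gave 0.30, 0.52 and 0.50 (adjusted p = 0.0994, 0.000834 and 0.000357). High and low dose did not differ beyond the threshold for it (0.25 ± 0.11, adjusted p = 0.488). Tipin changed by 0.52 ± 0.13, 0.44 ± 0.13 and 0.45 ± 0.13 and was not called, although median centring called it at every dose.

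The high dose was then set against the lower doses in lung. The lung mean was highest at the low dose for 25 of the 47 genes, at the medium dose for 18, at the high dose for 2 and in vehicle mice for 2. The high-dose mean lay below both lower doses for 42 of 47 genes, as it did for 35% of all genes. Between the high and the low dose 2 genes were called, both lower at the high dose (0.579% of all genes were called). These were Rrm2, with a difference of -1.11 ± 0.21 (adjusted p = 0.0102), and E2f8, with -0.79 ± 0.14 (adjusted p = 0.00778). At an unadjusted p under 0.05, 22 genes lay lower and only Timeless higher at the high dose, against 10.3% of all genes in either direction, and the median difference was -0.20. Between the high and the medium dose limma called none (0.229% of all genes), with 13 genes lower and none higher at an unadjusted p under 0.05 (10% of all genes) and a median of -0.20.

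High-dose mouse 18 and the scaling of the arrays both weighed on this comparison. Without mouse 18, 7 genes were called lower at the high than at the low dose (0.85% of all genes were called), namely Rrm2 (-1.36), E2f8 (-0.87), Cdt1 (-0.65), Tk1 (-0.65), Pole (-0.63), Mcm7 (-0.60) and Mcm5 (-0.59), and Rrm2 and E2f8 were lower than at the medium dose. Without mouse 20, 4 genes in place of 2 were called against vehicle at the high dose. With each array centred on its median in place of loess, the median over the 17922 genes above background on every lung array moved up by 0.19, 0.18 and 0.33 at the low, medium and high dose. The replication genes then had medians of 0.61, 0.60 and 0.59, which exceed those shifts by 0.42, 0.42 and 0.25. Under that scaling 12, 15 and 25 genes were called at the 3 doses (0.517%, 0.918% and 8.13% of all genes), no gene was called between the high and the low dose (3 at an unadjusted p under 0.05), and Rrm2 and E2f8 were at -0.81 and -0.58.

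Other genes of the same processes were counted from lists that did not include the 47, in lung. Of 34 further replication genes, 4, 3 and 1 were called higher at the low, medium and high dose, with medians of 0.09, 0.07 and -0.03. The called genes were the mitotic inhibitor Fbxo5 (1.02 ± 0.13 at the low dose), the histone chaperone Asf1b (1.02 ± 0.15), Dtl (0.80 ± 0.16), which targets Cdt1 for breakdown, and Rnaseh2b (0.62 ± 0.11 at the low and 0.65 ± 0.11 at the high dose). Of 22 further genes of nucleotide metabolism none was called higher at any dose (5, 8 and 4 at an unadjusted p under 0.05), and only Mthfd1, a folate pathway enzyme, was called lower, at the high dose (-0.59 ± 0.09), where median centring gave -0.06 and no call. Rrm2b, the p53-dependent counterpart of Rrm2, was at -0.05, -0.09 and -0.04 at the 3 doses.

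Markers of proliferation and mitosis were counted in the same way. Of 12, 8 were called higher at the low dose, 5 at the medium and none at the high dose, and 9 were called lower at the high than at the low dose. With median centring 10, 6 and 5 were called higher (0.517%, 0.918% and 8.13% of all genes were called). The 5 at the high dose were Mki67, Birc5, Ccna2, Plk1 and Ccnb2, and 3 were called lower at the high than at the low dose. With loess an unadjusted p under 0.05 was reached at the high dose by 4 that lay higher and 1 that lay lower. Mki67, the Ki-67 antigen, stood at -4.37, -4.45, -4.57, -3.94 and -4.34 in vehicle lungs, at -2.06, -2.51, -2.34 and -1.91 at the low, at -2.33, -2.50, -2.74, -2.86 and -2.98 at the medium, and at -4.09, -4.21, -3.05, -3.34 and -3.86 at the high dose. The lower doses lay far above vehicle and 2 of the 5 high-dose lungs lay within its range. Its change was 2.13 ± 0.20 (adjusted p = 7.63e-06), 1.65 ± 0.19 and 0.62 ± 0.19. The survivin gene Birc5 (2.08 ± 0.20) and the cyclin A gene Ccna2 (1.81 ± 0.16) followed at the low dose. Top2a was at 0.98, 0.73 and 0.18, and Cdk1 at 0.66, 0.19 and -0.23, over the 3 doses.

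The cell cycle inhibitor Cdkn1a (p21), a p53 target, went the other way between doses. It stood at -1.04, -0.99, -1.04, -1.50 and -0.21 in vehicle lungs, at 0.02, 0.62, 0.80 and 0.47 at the low, at 0.70, 0.76, 0.19, 0.66 and 1.12 at the medium, and at 1.59, 1.91, 1.18, 1.76 and 2.11 at the high dose. All dosed lungs exceeded all vehicle lungs, and all high-dose lungs exceeded the others. The change was 1.43 ± 0.22, 1.64 ± 0.21 and 2.66 ± 0.21, and the high dose exceeded the low by 1.23 (adjusted p = 0.00746). Of the 15 genes of E2F partners, pocket proteins and inhibitors, E2f7 was called at the low (1.08 ± 0.13) and medium dose (0.83 ± 0.12) and E2f3 at the high dose (0.71 ± 0.09).

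Markers of other cells in the same lungs are given beside these results. Of 12 leukocyte markers 10 were measured, and their mean level was 0.62 to 1.15 in vehicle lungs, 0.67 to 1.11 at the low, 0.89 to 1.33 at the medium and 0.72 to 1.29 at the high dose, with overlap at each dose. Of 4 endothelial markers Pecam1 (0.74 ± 0.14) and Cdh5 (0.82 ± 0.20) were called higher at the high dose. None of 3 fibroblast and 5 epithelial markers was called at any dose in lung, with at most 2 of a list at an unadjusted p under 0.05. The part of these markers in the replication results was not tested.

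In liver no replication gene was called at any dose over all 20 arrays (0%, 0% and 0.00538% of all genes at the low, medium and high dose). The unadjusted p was under 0.05 for 0, 0 and 6 genes, the 6 being Mcm6, Pcna, Rfc1, Rfc2, Prim1 and Rrm2, and for 3.3%, 4.55% and 8.09% of all genes. The median change was 0.32, 0.36 and 0.76, and 47, 45 and 46 of the genes lay above 0, against 53.9%, 53.7% and 53.1% of all genes. Within groups the 47 genes correlated at a mean of 0.83 over these arrays, so they are not separate observations. The upward direction is not stable against scaling, since with median centring the medians were -0.24, -0.30 and -0.48. The 4641 genes above background on every liver array then moved by -0.79, -0.96 and -1.79.

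In liver the third slide stood further from the other arrays than the dose groups stood from each other. The mean of the 47 genes was -0.84 to -0.65 on the 8 arrays of the third slide and -2.39 to -1.66 on the other 12. Mcm6 stood at -6.05, -5.74, -5.58, -3.88 and -2.47 in vehicle livers, at -2.39, -5.16, -5.76, -5.15 and -2.64 at the low, at -2.51, -4.14, -4.83, -4.31 and -2.19 at the medium, and at -3.36, -3.07, -2.19, -2.14 and -1.84 at the high dose. The third slide holds the last value of the vehicle group, the first and last of the low and medium groups and the last 3 of the high group, and those are the high values in each.

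Without the third slide, 4 vehicle livers remained with 3, 3 and 2 at the low, medium and high dose, and the median change was 0.04, 0.11 and 0.35 at the low, medium and high dose. At the low and medium dose none was called (0% and 0.49% of all genes). There 0 and 7 genes passed an unadjusted p of 0.05, against 8.32% and 12.3% of all genes. At the high dose 4 of the 47 genes were called, all higher (0.969% of all genes were called). These were Mcm6 (2.10 ± 0.41, adjusted p = 0.0207), Prim1 (1.15 ± 0.25, adjusted p = 0.036), Lig1 (0.79 ± 0.15, adjusted p = 0.0159) and Gins2 (0.71 ± 0.17, adjusted p = 0.0498). At an unadjusted p under 0.05, 27 genes passed at the high dose (14.1% of all genes). There 41 of the 47 lay above 0, and the median over all genes was -0.00524.

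The 2 remaining high-dose livers, mice 16 and 17, were at -3.36 and -3.07 for Mcm6, above all 4 remaining vehicle livers (-6.05 to -3.88). For Rrm2 they were at -3.90 and -2.85, against -5.17, -5.13, -5.04 and -4.39 in vehicle livers, a change of 1.56 ± 0.37 that was not called (adjusted p = 0.054). For Uhrf1 they were at -4.22 and -3.51, against -4.91, -4.66, -4.61 and -4.22, a change of 0.74 ± 0.19 (adjusted p = 0.0815) against a level near background, since the probe was well above it on 1 of these 4 vehicle livers. Mouse 17 was the higher of the 2 for these 3 genes. With all 20 arrays and the slide as a block the medians were 0.04, 0.11 and 0.26 and no gene was called at any dose, with 22 past an unadjusted p of 0.05 at the high dose (12.8% of all genes). Within the second slide, the only other slide with high-dose livers, the median difference was 0.43 (2 against 2 arrays), and within the third it was 0.10 (3 against 1).

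**Figure D4:**
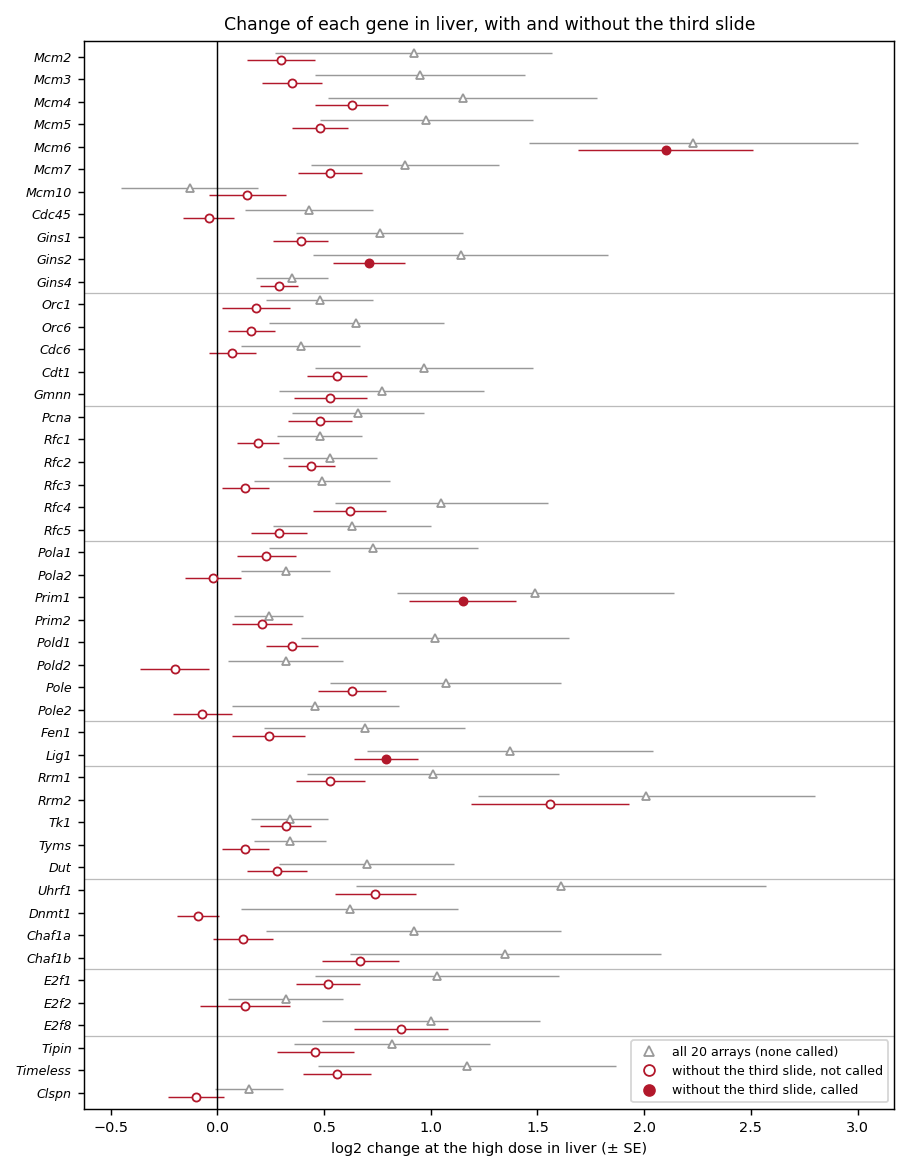
Log2 change at the high dose against vehicle in liver for each of the 47 genes with all 20 arrays (triangles, none called) and without the 8 arrays of the third slide (circles, filled where called); bars are SE. Leaving the slide out lowers most changes and shortens the bars, and Mcm6, Gins2, Prim1 and Lig1 are then called.

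In forestomach no replication gene was called at the low (0% of all genes), the medium (0%) or the high dose (0.0996% of all genes). At an unadjusted p under 0.05 limma gave 1, 0 and 1 genes (4.67%, 5.83% and 9% of all genes), Tk1 lower at the low dose (-0.25 ± 0.10) and Lig1 higher at the high dose (0.25 ± 0.11). The median change was -0.06, 0.03 and 0.11, and over the 3 doses no gene changed by more than 0.34 in either direction. Rrm2 stood at -2.96, -1.93, -2.12, -2.36 and -2.33 in vehicle forestomachs and at -2.78, -1.88, -2.21, -2.83 and -2.60 at the low dose, which overlap throughout. Timeless stood at -2.96, -2.42, -2.10, -2.52 and -2.50 in vehicle forestomachs and at -2.68, -2.56, -2.49, -2.31 and -2.12 at the high dose, again with overlap. Mki67 was at -0.09, -0.07 and -0.02 and Cdkn1a at 0.14, -0.02 and 0.06 over the 3 doses. With median centring the medians were 0.18, 0.10 and 0.38, so that the sign at the low dose depends on the scaling.

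The lung and forestomach changes were tested against each other. At the low dose 5 genes differed, all with the larger change in lung (0.237% of all genes). They were Rrm2 (1.87 ± 0.30, adjusted p = 0.000847), Uhrf1 (1.33 ± 0.28, adjusted p = 0.0211), Mcm7 (0.94 ± 0.21, adjusted p = 0.0361), Tk1 (0.88 ± 0.16, adjusted p = 0.00418) and E2f8 (0.84 ± 0.19, adjusted p = 0.0387). At the medium dose Rrm2 (1.31 ± 0.29, adjusted p = 0.0441) and Pcna (0.66 ± 0.14, adjusted p = 0.0289) differed (0.178% of all genes). At the high dose only Timeless did (0.83 ± 0.17, adjusted p = 0.00842; 0.912% of all genes). With median centring the low-dose difference of Rrm2 was the only one of these 8 still called, and Timeless had an adjusted p of 0.0512. With the authors' table E2f8 was no longer called.

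With the mouse as a block, since both tissues came from the same animals, 2 genes differed at the low dose, Rrm2 (2.02 ± 0.31, adjusted p = 0.00597) and Uhrf1 (1.49 ± 0.26, adjusted p = 0.0172), none at the medium dose (22 at an unadjusted p under 0.05) and Timeless (0.83 ± 0.16, adjusted p = 0.0157) at the high dose. The share of all genes called with the mouse as a block was 0.199%, 0.113% and 0.982% at the low, medium and high dose. Leaving out mice in turn gave 2 to 9 genes at the low dose and 0 to 3 at the medium dose. The count was 2 without mouse 2, 5, 6, 9 or 10 and 9 without mouse 7, whose lung was not measured. At an unadjusted p under 0.05, 30, 22 and 4 of the 47 genes passed at the low, medium and high dose, all with the larger change in lung, against 6.21%, 9.57% and 11.5% of all genes, so that the high-dose count is near the share of all genes.

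**Figure D5:**
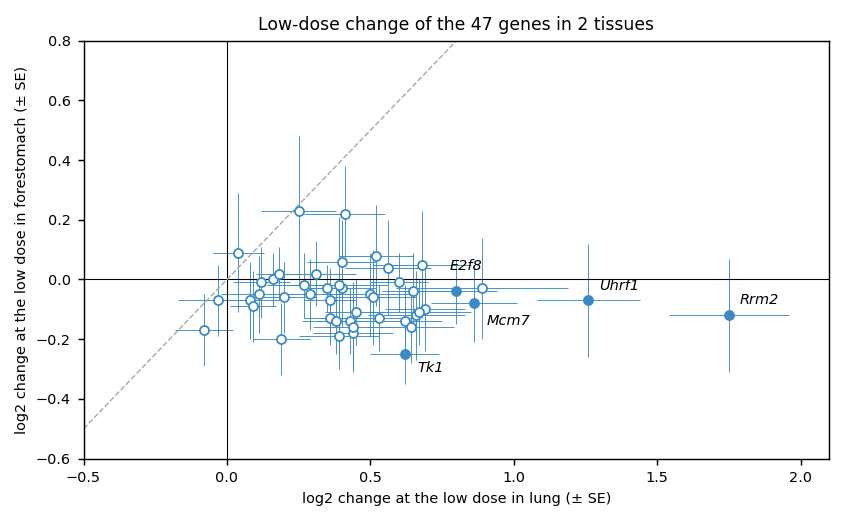
Low-dose log2 change of each of the 47 genes in lung (horizontal) against forestomach (vertical), with SE bars; the dashed line marks equal changes and filled points are genes whose change differed between the tissues. Forestomach changes stay between -0.25 and 0.23 while lung changes reach 1.75, for Rrm2.

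No replication gene was called for a different change in lung and liver at the low (0% of all genes), medium (0.00807%) or high dose (0.385%). At an unadjusted p under 0.05, 1, 0 and 1 genes passed, against 3.43%, 6.68% and 10.8% of all genes. The third liver slide enters these tests. With the slide as a block Timeless differed at the high dose (0.65 ± 0.16, adjusted p = 0.0278), Uhrf1 at the low dose (1.15 ± 0.25, adjusted p = 0.0448), and Mcm2, Uhrf1 and Chaf1a at the medium dose, each with the larger change in lung. The share of all genes called with that block was 0.124%, 0.353% and 1.6% at the low, medium and high dose. The high-dose count of 1 gene is near that share. In vehicle liver Mcm2 was well above background on 0 of 5 arrays, Uhrf1 on 1 and Chaf1a on 4, so that the values of Mcm2 and Uhrf1 here rest on liver levels at or near background. Without the third slide only Uhrf1 at the medium dose differed (1.16 ± 0.27, adjusted p = 0.0445). The share of all genes called was then 0.0538%, 0.457% and 1.31% at the low, medium and high dose. At an unadjusted p under 0.05, 23, 15 and 8 genes then passed at the low, medium and high dose, against 7%, 11.8% and 12.9% of all genes. Between liver and forestomach no gene differed at the high dose (0.0377% of all genes), with Mcm6, Orc1, Prim1 and Rrm2 past an unadjusted p of 0.05 (7.27% of all genes).

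The tissues differed before any dose. In vehicle mice 15 of the 47 genes (31.9%) differed between lung and forestomach, against 23% of all genes, and 13 of the 15 were lower in lung. Rrm2 was at -4.28 ± 0.24 (SD, n = 5) in lung and -2.34 ± 0.39 in forestomach, Tk1 at -2.16 ± 0.15 and -0.76 ± 0.19, and Uhrf1 at -4.35 ± 0.25 and -2.76 ± 0.39. The histone chaperone subunit Chaf1a and E2f8 were also lower in lung, by differences of -1.78 ± 0.35 and -1.61 ± 0.28 (SE), while E2f1 (0.99 ± 0.25) and E2f2 (1.06 ± 0.19) were higher there. With median centring 9 genes differed, a setting for which the share of all genes was not computed. The low-dose lungs, at -2.62 to -2.44 for Rrm2, thus lay within the range of vehicle forestomach (-2.96 to -1.93), a comparison of levels that was not tested.

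Between vehicle lung and liver 15 genes (31.9%) differed, 5 higher and 10 lower in lung, which is near the 29.1% of all genes. Between liver and forestomach 16 genes (34%) differed, 3 higher and 13 lower in liver, against 24.4% of all genes. Mcm10, which helps start the helicase, stood apart in liver at 1.90, 1.61, 2.05, 1.84 and 0.93 in the 5 vehicle mice, against a mean of -2.91 ± 0.22 (SD) in lung and -1.79 ± 0.22 in forestomach, which neither group overlapped. Mcm4 (1.63 ± 0.33) and Pcna (1.16 ± 0.16) were higher in lung than in liver, and Tk1 (-1.37 ± 0.13) and Gins1 (-1.67 ± 0.23) lower. Mcm6 (-2.10 ± 0.55) and Rrm2 (-2.01 ± 0.46) were lower in liver than in forestomach. In vehicle liver 8 of the 47 probes, those of Mcm2, Cdc45, Orc1, Cdc6, Pola2, Pole2, Tyms and Clspn, were not well above background on any array, so that their levels there are bounds only. The vehicle liver group contains 1 array of the third slide. Without that slide 22, 20 and 24 genes differed between lung and liver, lung and forestomach, and liver and forestomach. The share of all genes was not computed without it, so these counts cannot be set against it. Each slide held 1 tissue, so slide and tissue cannot be told apart.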

How the data were processed

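RNA of lung, liver and forestomach was measured on 59 2-colour arrays on 9 slides. The deposited scanner files hold spot intensity in both dyes, extracted by the authors with Agilent Feature Extraction, and the deposited value table holds log2 ratios that the authors normalized by LOWESS from median signals without background correction. Median Cy5 and Cy3 intensity was taken here without background correction and normalized within each array by loess. Control spots and outlier flags were left out, spots of a probe were averaged, and of 55681 probes 26413 were matched by accession to a RefSeq symbol of GRCm38.p6 (20018 symbols), while the others kept the array file's name. The authors' log2 table correlated with the values used here at 0.967 to 0.999 per array, in the same direction, with column medians of -0.041 to -0.00718. It was used as an alternative. The authors' test (MAANOVA) was replaced by limma (version 3.58.1, R 4.3.3), with 1 fit per tissue over its 4 dose groups. Differences of change between tissues came from 1 fit per pair of tissues, over all arrays of both. Vehicle levels were compared in 1 fit over the vehicle arrays of all tissues. The brightest probe stood for each gene, p-values were adjusted over all probes, and a call needed an adjusted p of at most 0.05 and a 1.5-fold change. The fits were tested on simulated data.

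The 47 members and all gene lists were chosen with earlier results of these data known. The result of 1 marker gene is not reported here. Values in every mouse of lung are given for the called members and, whether or not called, for Mcm2 to Mcm7, Cdc6, Pcna, Pola1, Lig1, Rrm2, Uhrf1, E2f1 and Timeless. Genes of the other lists are named where called (the largest changes), and Mki67, Top2a, Cdk1, Cdkn1a and Rrm2b always. In liver and forestomach, where no member was called over all arrays, examples were chosen after their values were seen. Same-numbered samples come from the same animal. Over all genes, not the members alone, deviations of a mouse from its group means correlated between tissues at a median of -0.03 (lung and liver), 0.04 (lung and forestomach) and 0.03 (liver and forestomach). Alternatives were normexp background correction, median centring, the authors' table, only probes above background, any probe of a gene, no fold threshold, the slide or the mouse as a block, the third liver slide left out, and each mouse left out in turn. The number of arrays limits the precision, as no counts lie behind these values.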

Additional observations from a re-analysis of the deposited data

Results flagged for a closer look

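In 5 of 84 groups of mice tested, 1 mouse lay farther from the rest of its group than Dixon's 95% critical value allows, and chance gives about 1 in 20. In vehicle liver the mean level of the replication genes was -0.84 in mouse 5, on the third slide, and -2.39 to -2.09 in the other 4. In high-dose lung Rrm2 was at -2.66 in mouse 18 and at -4.11 to -3.69 in the other 4. In vehicle lung Mcm3 was at -2.49 in mouse 2, against -2.20 to -2.10 in the others. In low-dose lung Pola1 was at -1.42 in mouse 10, against -1.84 to -1.78. In medium-dose lung Lig1 was at -1.85 in mouse 12, against -2.08 to -2.02.

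The change from vehicle differed between lung and forestomach in 8 tests of the difference itself, each with the larger change in lung. At the low dose these were Rrm2 (1.87), Uhrf1 (1.33), Mcm7 (0.94), Tk1 (0.88) and E2f8 (0.84), at the medium dose Rrm2 (1.31) and Pcna (0.66), and at the high dose Timeless (0.83). With the mouse as a block 3 of these were called, Rrm2 and Uhrf1 at the low and Timeless at the high dose.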

How the results depend on the processing

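No called change of a member, between doses or between tissues, reversed under any alternative run in which its own value was followed. The direction of the called vehicle levels, of the second probes and of genes of the other lists was not followed in this way. Median centring turned the uncalled liver medians to -0.24, -0.30 and -0.48 and the low-dose forestomach median to 0.18. The authors' table kept all 30 counts and medians within 1.5 times or 1 SD. Median centring moved the most. The lung medians went to 0.61, 0.60 and 0.59 in order of dose. The medium- and high-dose calls in lung went to 15 and 25 (0.918% and 8.13% of all genes), and those between high and low dose to 0. The forestomach medians went to 0.18, 0.10 and 0.38. The differences between lung and forestomach went to 1, 0 and 0, and the vehicle difference of lung and forestomach to 9. Without the fold threshold 16 and 7 genes were called in lung at the medium and high dose. Between high and medium dose in lung 1 gene was called with normexp, 1 with probes above background only and 2 with the slide as a block. Without the third liver slide 4 genes were called at the high dose in liver, and 1 differed between lung and liver at the medium dose. With the slide as a block 1, 3 and 1 differed between lung and liver at the low, medium and high dose (0.124%, 0.353% and 1.6% of all genes). With that block 5 differed between lung and forestomach at the medium dose, where probes above background gave 4 at the medium and 8 at the low dose. With the mouse as a replicate block 2 and 0 differed between lung and forestomach at the low and medium dose, and 8 of 10 counts stayed within 1.5 times. Leaving out 1 mouse gave 2 to 4 calls at the high dose in lung (4 without mouse 20), 2 to 7 between high and low dose (7 without mouse 18), 0 to 2 between high and medium dose (2 without mouse 18, 1 without mouse 15), and a medium-dose forestomach median of -0.03 to 0.07 (beyond 1 SD without mouse 1 or 3). It gave 2 to 9 differences between lung and forestomach at the low and 0 to 3 at the medium dose, and 8 to 23 between vehicle liver and forestomach (under 11 without mouse 1, 2, 3 or 4). The causes were not tested. Each slide held 1 tissue, so the planned slide block could not be fitted between vehicle tissues. A random slide block kept those 3 counts within 1.5 times. Probes near background, as in most of the third liver slide, limit what small changes can show.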

Other observations

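The replication genes moved together from mouse to mouse within a group. Over the arrays of 1 tissue, after the group means were taken off, the mean correlation between pairs of the 47 genes was 0.43 in lung, against 0.00152 for pairs of all genes, 0.30 in forestomach and 0.83 in liver, where it was 0.37 without the third slide. The pairs of all genes include probes near background, and no list of similarly detected genes was compared. How unusual the correlation of the 47 genes is therefore cannot be read from that contrast. The arrays share a tissue and a slide, so this is a description without a test.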
